A study of Mus musculus with 12 samples.

Results

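The Hox genes are a family of transcription factors with a homeobox, grouped in the mouse in the clusters Hoxa, Hoxb, Hoxc and Hoxd. Their levels were compared here between sorted fractions of kidney tubules. Members were all genes whose name on the array begins with Hox, a cluster letter from a to d and a paralogue number, with no use of a measured value. This gave 38 Hox genes of 27597 named genes, covered by 50 probes: 26 genes had 1 probe and 12 had 2. They account for 38 of the 39 Hox genes that RefSeq lists for the mouse, and the remaining one, Hoxc11, was not found by name.

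Within a cluster the genes lie in the order of their paralogue numbers and, in the embryo, low numbers are switched on early and towards the head, high numbers late and towards the tail. The proteins bind DNA through the homeodomain, often together with the cofactors Pbx and Meis. In the developing kidney the paralogues of Hoxa11 act with Eya1 in the mesenchyme that gives rise to the nephron, and the Hoxb7 promoter is active in the ureteric bud, the source of the collecting duct.

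Tubule suspensions were taken from 4 mice, mice 1 and 3 being female and mice 2 and 4 male, and passed through a large-particle sorter. In each mouse this gave green fluorescent tubules, which are distal convoluted tubules (DCT) per the series' design text, tubules without fluorescence, and the unseparated total. These fractions are named EGFP+, EGFP- and ALL, and each was hybridised to 1 array per mouse, 12 arrays in all. Age, strain and the promoter behind the EGFP are unstated in the labels used here. The ALL fraction also contains fluorescent tubules.

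Each array's 75th percentile of signal lay between 922 and 2270. The scanner software called 53.9% to 65.6% of probes well above background. Between 27 and 29 Hox genes were well above background on each array. Levels are log2 processed signals minus the array's 75th percentile, so 0 is the upper quartile of an array. The DCT transporter gene Slc12a3 stood at 7.52 in EGFP+ tubules, at 4.51 in ALL and at -0.85 in EGFP- as means of 4 mice. The summed linear level of 5 DCT markers was 389 to 500 in EGFP+ and 22 to 33.9 in EGFP- tubules, so the labels and this marker list ran the same way.

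Of the 38 Hox genes, 28 reached that call on 4 or more of the 12 arrays and were tested with limma over all 17071 genes that met this filter. Of the other 10 genes 7 were detected on no array. Of these 28, 18 were higher in EGFP+ than in EGFP- tubules, 3 were lower and 7 did not pass an adjusted p of 0.05. Over all genes tested the share past the threshold was 58.2%, with 32.3% higher and 25.9% lower. All 8 tested Hoxb genes and all 5 tested Hoxd genes were higher. The Hoxa cluster divided into 4 higher, 3 lower and 3 that did not pass, and in the Hoxc cluster 1 of 5 passed. The median difference was 3.72 over the tested Hoxd genes, 2.11 over Hoxb, 0.19 over Hoxa and 0.16 over Hoxc, against 0.11 over all genes tested. In such bulk samples fewer cells of a type and less RNA per cell cannot be told apart. Setting Hoxa11, whose EGFP+ level is only a bound, to that bound could not move the Hoxa median of 0.19. Hoxa11 is the lowest of the tested Hoxa genes either way.

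**Figure D1:**
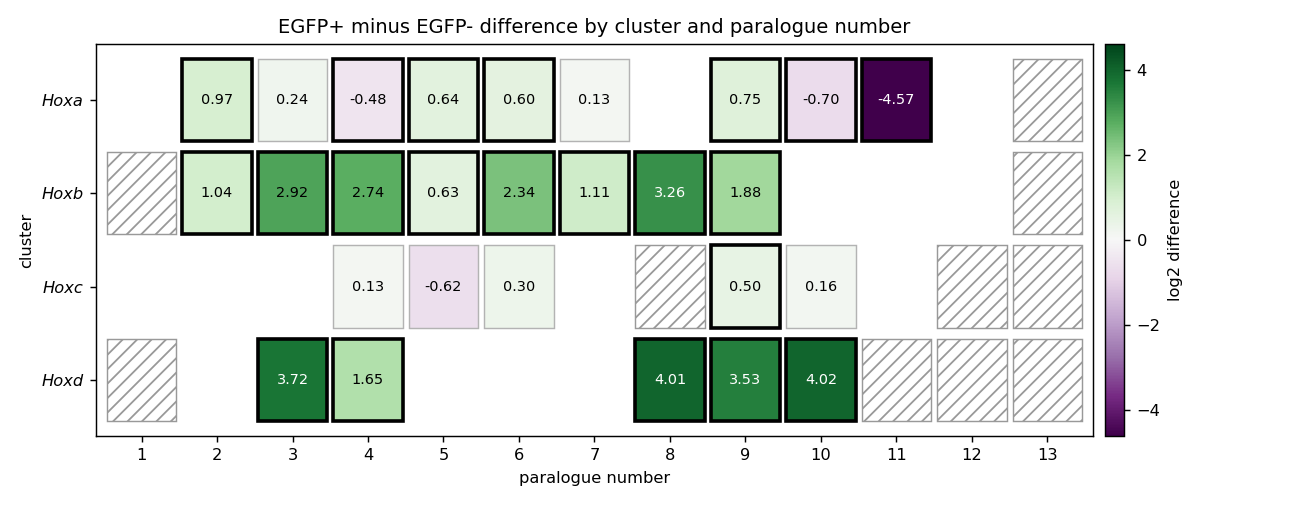
Log2 difference EGFP+ minus EGFP- for Hox genes on the array, with the cluster on the y axis and the paralogue number on the x axis. Thick frames mark an adjusted p under 0.05, hatched cells are genes well above background on fewer than 4 arrays, and no gene is shown in empty cells. The Hoxb and Hoxd rows are positive throughout, from 0.63 to 4.02, and Hoxa11, which was detected on no EGFP+ array and so has only a bound, is drawn at its fitted -4.57.

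By paralogue number, all 4 genes of group 9 were higher in EGFP+ tubules (Hoxa9, Hoxb9, Hoxc9 and Hoxd9), as were both tested genes of group 8 and both of group 2. Of these genes, Hoxc9 lost the call in 6 of 15 alternatives to the main processing and Hoxa2 in 2. Group 10 split by cluster, with Hoxd10 higher, Hoxa10 lower and Hoxc10 not past the threshold. Group 4 split as well, with Hoxb4 and Hoxd4 higher, Hoxa4 lower and Hoxc4 not past it. Paralogues 3 to 10 were tested in 24 of 25 cases, whereas of the 8 genes numbered 11 to 13 only Hoxa11 reached the filter.

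Some Hox probes read the coding sequence of the parts by which these proteins bind DNA and their cofactors. Those printed here show what such probes measure. They come from different paralogue groups, and the Hoxd3 probe is not the one used for the gene. Probe positions are those of the mouse genome build mm8 in the scanner files, 5′ to 3′ on the strand of the gene. Capitals mark, in the first pair, codons of the recognition helix of the homeodomain, the part that lies in the groove of DNA, and in the last pair the codons of the short tryptophan motif that Pbx proteins grip.
Hoxd10, chr2:74495062-74495121, plus strand: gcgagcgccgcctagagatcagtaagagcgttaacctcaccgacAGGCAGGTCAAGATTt
Hoxb4, chr11:96136297-96136356, plus strand: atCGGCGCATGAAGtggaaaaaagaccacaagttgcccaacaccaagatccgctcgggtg
Hoxd3, chr2:74545313-74545372, plus strand: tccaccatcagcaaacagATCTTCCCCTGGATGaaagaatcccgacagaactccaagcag
Hoxa6, chr6:52137778-52137837, minus strand: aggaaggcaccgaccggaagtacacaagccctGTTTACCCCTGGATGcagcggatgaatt

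Identical runs shared by probes of different Hox genes were mostly short. Over 1213 pairs of probes from different Hox genes the longest shared run had a median of 6 bases, and in 1 pair it reached 15 bases or more. That pair, with a run of 22 bases, was the Hoxa9 probe and a Hoxb3 probe other than the one used for the gene. Probes were not compared with the transcripts of other Hox genes, and cross-hybridisation was not tested.

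The Hoxd genes showed the largest excess in EGFP+ tubules. Hoxd10, which patterns the hindlimb and its motor neurons, stood in mice 1 to 4 at 2.30, 2.05, 2.44 and 2.15 in EGFP+ tubules, at -0.26, -0.54, -0.30 and -1.20 in the total (ALL) and at -1.46, -1.54, -1.79 and -2.35 in EGFP-. Every EGFP+ array lay above every ALL array, and every ALL array above every EGFP- array. Hoxd10 was 16.2-fold higher in EGFP+ than in EGFP- tubules (95% confidence interval 11.3 to 23.3, adjusted p = 5.0e-08).

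Hoxd8, a member of the central group of the cluster, stood at 4.89, 4.78, 4.74 and 4.59 in EGFP+ tubules, at 2.26, 1.86, 2.26 and 1.35 in the total (ALL) and at 1.15, 0.53, 1.03 and 0.25 in EGFP-. The fractions were again in separate ranges, with ALL between the other two. The difference between EGFP+ and EGFP- was 16.1-fold (11.2 to 23.1, adjusted p = 5.0e-08).

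Hoxd3, which with Hoxa3 shapes the uppermost vertebrae, stood at 0.79, 0.71, 0.40 and 0.52 in EGFP+ tubules, at -1.66, -2.38, -2.26 and -2.49 in the total (ALL) and at -2.91, -3.38, -2.89 and -3.30 in EGFP-. No array of one fraction reached the range of another. The gene was 13.2-fold higher in EGFP+ than in EGFP- tubules (9.87 to 17.6, adjusted p = 1.7e-08). Its probe in the tryptophan motif, printed above, differed by 3.48 ± 0.47 (log2, SE, adjusted p = 5.5e-05 over all tested probes) and reached the detection call on 4 of 4 EGFP+ but 1 of 4 EGFP- arrays.

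Hoxd9, which acts in the limb and the lower spine, stood at 3.22, 3.17, 3.50 and 3.48 in EGFP+ tubules, at 0.91, 0.59, 0.90 and 0.15 in the total (ALL) and at 0.07, -0.23, 0.08 and -0.68 in EGFP-. The 3 ranges did not overlap. Hoxd9 was 11.6-fold higher in EGFP+ than in EGFP- tubules (8.43 to 15.8, adjusted p = 4.8e-08), and its other probe differed by 3.43 ± 0.20 (log2, SE). Hoxd4, a retinoic acid responsive gene of the neck region, had a smaller difference. It stood at 2.02, 1.84, 2.09 and 2.29 in EGFP+ tubules, at 0.94, 0.82, 0.61 and 0.49 in the total (ALL) and at 0.50, 0.30, 0.78 and 0.04 in EGFP-. The EGFP+ range stood apart while ALL and EGFP- overlapped, and the EGFP+ to EGFP- ratio was 3.14 (2.43 to 4.07, adjusted p = 5.4e-06).

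On the chromosome these 5 genes form an unbroken block of the cluster. Their probes run from 74495062 in Hoxd10 to 74548397 in Hoxd3 on chromosome 2, and the neighbours on either side, Hoxd11 at 74484810 and Hoxd1 at 74565782, were not well above background on any array. Hoxd12 was not either, and Hoxd13, the gene of the digits and the genital bud, was well above background on 2 of 4 ALL arrays with 1 of its 2 probes. In RefSeq the span of Hoxd4 lies within that of Hoxd3 on the same chromosome, so a long Hoxd3 transcript could in part be read by the Hoxd4 probe, and the values of these neighbours are uncertain to that extent.

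**Figure D2:**
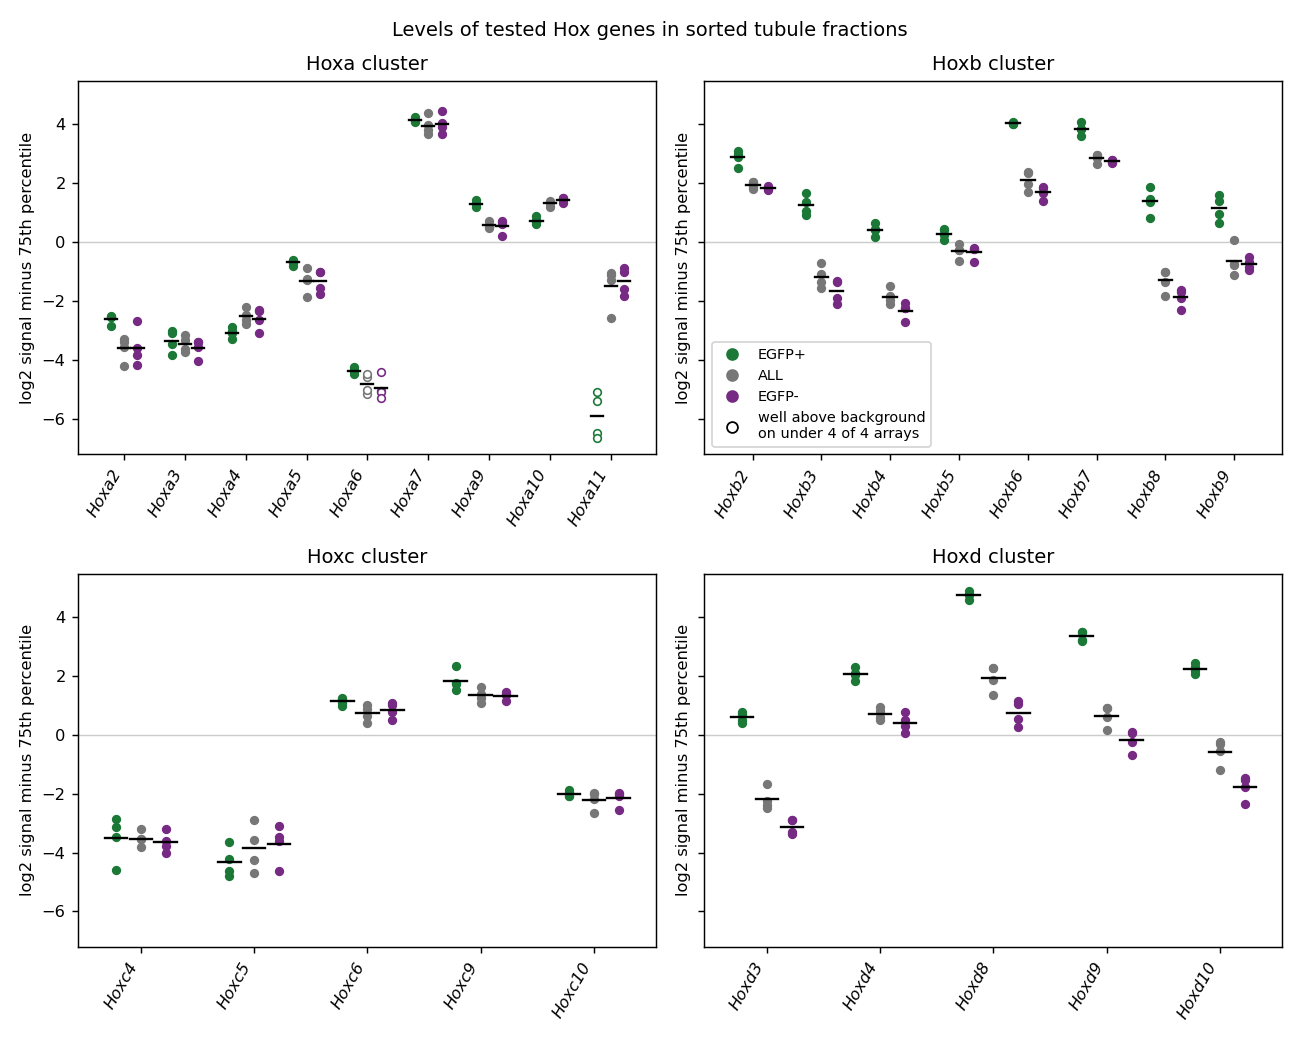
Level of 27 tested Hox genes on each array, as log2 signal minus the 75th percentile of the array, in 1 panel per cluster. Each point is 1 mouse, black bars are means of 4 mice, and open points belong to a fraction in which the probe was well above background on fewer than 4 arrays. EGFP+ points of Hoxd3, Hoxd4, Hoxd8, Hoxd9 and Hoxd10 lie above all others of the same gene, and those of Hoxa11 lie below them.

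In the Hoxb cluster the excess was largest in Hoxb8, known for its part in microglia and grooming behaviour. It stood at 1.89, 1.46, 1.37 and 0.82 in EGFP+ tubules, at -1.01, -1.35, -1.01 and -1.84 in the total (ALL) and at -1.68, -1.62, -1.90 and -2.30 in EGFP-. All EGFP+ arrays were above 0 and all others below it. The ratio of EGFP+ to EGFP- was 9.58 (6.52 to 14.1, adjusted p = 4.8e-07), and a further Hoxb8 probe was detected on 3 of 4 EGFP+ arrays and on no other array.

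Hoxb3, a hindbrain gene, stood at 1.66, 1.35, 1.07 and 0.93 in EGFP+ tubules, at -0.72, -1.09, -1.36 and -1.57 in the total (ALL) and at -1.33, -1.36, -1.91 and -2.09 in EGFP-. The EGFP+ arrays were all the highest, and ALL and EGFP- overlapped. The difference was 7.59-fold (5.28 to 10.9, adjusted p = 7.3e-07), and another Hoxb3 probe gave 1.97 ± 0.18 on the log2 scale (SE), below the 2.92 ± 0.24 of the probe used for the gene. The array's annotation lists that other probe under a Hoxd3 transcript as well, so its signal is uncertain between Hoxb3 and Hoxd3.

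Hoxb4, used to expand blood stem cells, stood at 0.44, 0.18, 0.42 and 0.65 in EGFP+ tubules, at -1.50, -1.97, -1.82 and -2.11 in the total (ALL) and at -2.25, -2.08, -2.23 and -2.72 in EGFP-. EGFP+ again had a range of its own. Hoxb4 was 6.70-fold higher in EGFP+ than in EGFP- tubules (5.15 to 8.72, adjusted p = 8.35e-08). Its RefSeq span lies within that of Hoxb3, so its values share the uncertainty named for Hoxd4.

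Hoxb6, a gene of the trunk mesoderm, had the least spread in EGFP+ tubules, with 4.05, 4.07, 4.01 and 4.01. It stood at 2.39, 1.97, 2.35 and 1.71 in ALL and at 1.84, 1.68, 1.88 and 1.39 in EGFP- tubules. EGFP+ was above all the other arrays, and the difference to EGFP- was 5.07-fold (3.97 to 6.48, adjusted p = 1.7e-07). The probes of Hoxb6 disagreed: the other, at chr11:96115057-96115116, differed by 0.08 ± 0.19 (log2, SE, adjusted p = 0.737). With the mean of both probes the Hoxb6 difference was 1.21.

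Hoxb9, a gene of the rib cage and mammary gland, stood at 1.60, 0.66, 0.95 and 1.39 in EGFP+ tubules, at 0.07, -1.11, -0.76 and -0.74 in the total (ALL) and at -0.68, -0.84, -0.49 and -0.93 in EGFP-. The EGFP+ range lay above the overlapping ranges of ALL and EGFP-. The ratio to EGFP- was 3.69 (2.49 to 5.48, adjusted p = 6.3e-05), and its other probe gave a log2 difference of 2.02 ± 0.21 (SE).

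Hoxb7, the gene of the ureteric bud promoter, stood at 4.08, 3.86, 3.85 and 3.60 in EGFP+ tubules, at 2.95, 2.85, 2.96 and 2.66 in the total (ALL) and at 2.71, 2.69, 2.79 and 2.78 in EGFP-. Its EGFP+ arrays did not overlap the others, with a ratio to EGFP- of 2.15 (1.80 to 2.57, adjusted p = 6.7e-06). Hoxb2, a gene of the hindbrain and facial nerve, stood at 3.01, 3.09, 2.89 and 2.52 in EGFP+ tubules, at 1.89, 2.03, 1.81 and 2.03 in the total (ALL) and at 1.80, 1.87, 1.77 and 1.91 in EGFP-. EGFP+ again lay above the other arrays, which overlapped. The Hoxb2 ratio to EGFP- was 2.05 (1.69 to 2.49, adjusted p = 2.5e-05). The other Hoxb2 probe lies on the strand opposite to the Hoxb genes and differed by 0.48 ± 0.17 (log2, SE).

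Hoxb5, a gene of lung and gut innervation, had a 1.54-fold excess (1.22 to 1.95, adjusted p = 0.0040) and no overlap between EGFP+ and EGFP- arrays. The end members Hoxb1, of the facial nerve nucleus, and Hoxb13, of the prostate, were not well above background on any array.

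The Hoxa cluster held the largest deficit among the tested Hox genes. Hoxa11, required with its paralogues for the kidney, the forearm and the uterus, stood at -1.11, -1.04, -1.29 and -2.58 in ALL and at -0.86, -1.57, -1.02 and -1.84 in EGFP- tubules, well above background on all 8 of these arrays (chr6:52171691-52171750). In EGFP+ tubules its signal was -6.47, -5.39, -5.08 and -6.63 and was not well above background on any of the 4 arrays. For a bound, its EGFP+ level was set to the dimmest detected signal of any probe on the array, or to its own where higher. With that floor and the processed signal, Hoxa11 was at least 15.2-fold lower in EGFP+ than in EGFP- tubules (adjusted p = 2.3e-06 for the fitted difference). It was at least 13.4-fold lower than in ALL. The floor is not a detection limit of this probe. The fitted log2 difference of -4.57 rests on EGFP+ signals below the detection call and is not a measured size. With normexp background correction it was -1.62 (adjusted p = 0.0127), smaller than the bound, which holds for the processed signal only.

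Beside Hoxa11, markers of several other kidney cells were lower in EGFP+ tubules. The summed linear level of 6 podocyte markers was 0.449 to 1.48 in EGFP+ and 35.4 to 71.1 in EGFP- tubules, and all 6 were lower. For 7 endothelial markers, all lower, the sums were 4.54 to 6.25 against 44.5 to 74.2, and for 5 principal cell markers of the collecting duct, all lower, 2.0 to 3.55 against 31.7 to 36.3. Of 7 markers of stroma and smooth muscle 4 were lower and 3 did not pass, with sums of 3.16 to 4.97 against 12.9 to 20.8. Pdgfra and Des were detected on no EGFP+ array, while Acta2 stood at 1.88 in EGFP+ and 1.66 in EGFP- tubules. All 6 proximal tubule markers and all 4 tested leukocyte markers were lower as well. Of the 5 markers of the thick ascending limb, the segment before the DCT, all were higher, with sums of 26.9 to 36.4 over 4 of them against 10.8 to 22. Of 6 intercalated cell markers 1 was higher and 2 were lower, and of 2 tested urothelial markers 1 was lower. The part of these cells in the level of Hoxa11, and of the other Hox genes, was not tested.

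Hoxa10, a gene of the uterus and the lumbar spine, was also lower, by a small amount. It stood at 0.62, 0.75, 0.69 and 0.88 in EGFP+ tubules, at 1.34, 1.41, 1.20 and 1.33 in the total (ALL) and at 1.48, 1.33, 1.42 and 1.52 in EGFP-. Every EGFP+ array lay below all others, and the gene was 1.63-fold lower than in EGFP- tubules (1.41 to 1.89, adjusted p = 5.6e-05). Hoxa4 was 1.39-fold lower in the fit (1.05 to 1.85, adjusted p = 0.0456), but its EGFP+ and EGFP- arrays overlapped and it was lower in 3 of 4 mice. Hoxa4 did not pass without mouse 1 (adjusted p = 0.139), mouse 3 (0.266) or mouse 4 (0.121), with quantile normalization (0.113), median centring (0.138), no filter on dim probes (0.0861) or outlier spots kept (0.0617), and with normexp background correction its sign turned, to a log2 difference of 0.18 (adjusted p = 0.574).

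The other members of the Hoxa cluster that passed were higher in EGFP+ tubules by less than 2-fold. Hoxa2, a selector gene of the branchial arches, stood at -2.54, -2.52, -2.84 and -2.56 in EGFP+ tubules, at -3.56, -3.38, -4.20 and -3.30 in the total (ALL) and at -3.85, -3.60, -4.18 and -2.69 in EGFP-. Mouse 4 had an EGFP- level inside the EGFP+ range, and the ratio was 1.95 (1.25 to 3.04, adjusted p = 0.0135). Hoxa9, a gene of blood progenitors, had no overlap between EGFP+ and EGFP- and a ratio of 1.68 (1.38 to 2.03, adjusted p = 3.1e-04). Hoxa5, which acts in lung and chest, had a ratio of 1.56 (adjusted p = 0.028), and Hoxa6 one of 1.51 (adjusted p = 0.0241), with Hoxa6 well above background on 2 of 4 EGFP- arrays. Hoxa2 did not pass without mouse 1 (adjusted p = 0.0937) or mouse 2 (0.0780). Hoxa5 did not pass without mouse 2 (0.120), mouse 3 (0.0571) or mouse 4 (0.0573), nor Hoxa6 without mouse 1 (0.0836), mouse 3 (0.0879) or mouse 4 (0.0953). Hoxa5 also did not pass with the slide as a block (0.56, adjusted p = 0.0586) or with no filter on dim probes (0.0514), nor Hoxa6 with normexp correction (1.05, adjusted p = 0.0672).

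Hoxa7 and Hoxa3 were well above background on all 12 arrays without passing. Hoxa7 stood at 4.15 ± 0.07 in EGFP+ and 4.02 ± 0.33 in EGFP- tubules (SD, n = 4), and the 95% interval of its log2 difference ran from -0.26 to 0.53. For Hoxa3, of thymus and parathyroid, the interval was -0.23 to 0.72. Its other probe differed by 1.27 ± 0.84 (log2, SE, limma adjusted p = 0.218 over all tested probes). That probe was well above background on 3 of 4 EGFP+ and 2 of 4 EGFP- arrays. Hoxa13, of the hand and the genital tract, was well above background on 1 EGFP+ and 1 ALL array with 1 of its 2 probes. In RefSeq the spans of Hoxa4, Hoxa5 and Hoxa6 lie within the span of Hoxa3, so their values share the uncertainty named for Hoxd4.

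**Figure D3:**
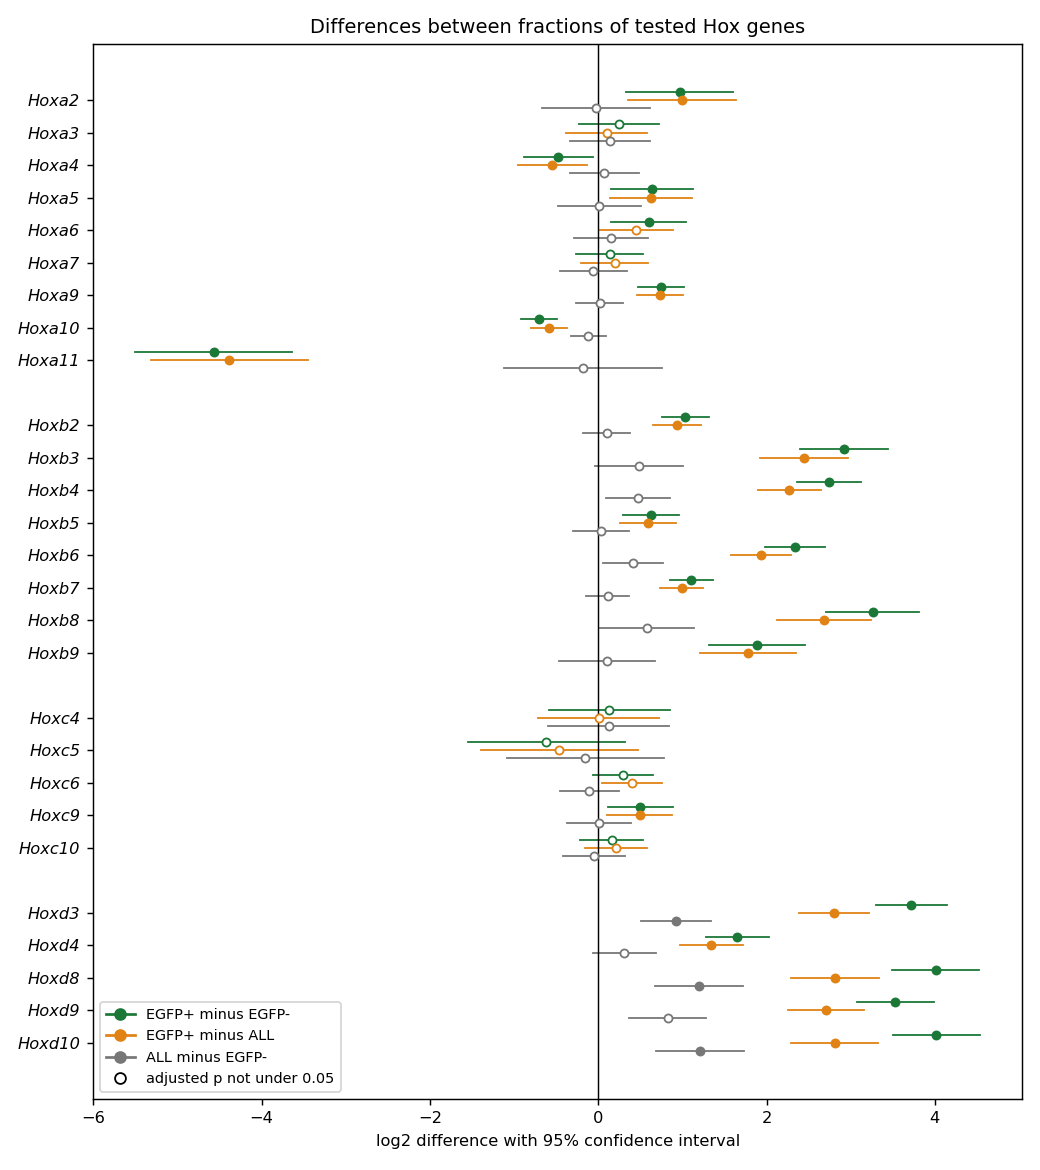
Log2 differences between fractions for 27 tested Hox genes with 95% confidence intervals, ordered by cluster and paralogue number. Filled points have an adjusted p under 0.05. EGFP+ minus EGFP- exceeds 3 for Hoxb8, Hoxd3, Hoxd8, Hoxd9 and Hoxd10, while ALL minus EGFP- passes in Hoxd3, Hoxd8 and Hoxd10.

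The tested Hoxc genes differed by -0.62 to 0.50 on the log2 scale. Hoxc9, which sets the thoracic identity of motor neurons, was 1.42-fold higher in EGFP+ than in EGFP- tubules (1.08 to 1.85, adjusted p = 0.028), with 1.71, 1.77, 2.32 and 1.50 in EGFP+ and 1.35, 1.37, 1.44 and 1.14 in EGFP- tubules. Its ranges did not overlap, but without mouse 3 the difference was 0.38 (adjusted p = 0.0600), without mouse 1 the adjusted p was 0.0791 and without mouse 2 it was 0.0941. Hoxc9 did not pass with normexp correction (0.37, adjusted p = 0.123) or with dim probes kept (0.0569) either. Hoxc6, a thoracic gene, stood at 1.13 ± 0.12 in EGFP+ and 0.83 ± 0.25 in EGFP- tubules (SD, n = 4), with an interval of the log2 difference from -0.06 to 0.65. For Hoxc10, of the lumbar motor neurons, the interval was -0.21 to 0.53. Hoxc4 and Hoxc5 had wide intervals, of -0.59 to 0.85 and -1.55 to 0.32, at dim signals. Hoxc8 was well above background on 1 EGFP+ array, and Hoxc12 and Hoxc13, the latter a gene of hair and nail, on none.

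Of the 21 Hox genes past the threshold, 20 changed in the same direction in all 4 mice, Hoxa4 being the exception. Within each of the 3 slides, each of which mixes mice and fractions, 20 kept the sign, Hoxa6 being the exception on slide 2 with -0.06. Hoxd10 differed by 3.63, 3.98 and 4.22 within slides 1, 2 and 3, Hoxb8 by 3.36, 2.99 and 2.92, and Hoxa11 by -5.06, -3.51 and -5.21, the last with its EGFP+ signal below the detection call. EGFP+ and EGFP- arrays did not overlap in 18 of 28 tested Hox genes, against 55.8% of all genes tested.

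Against the total fraction, which shares its EGFP+ arrays with the comparison above, 17 of 28 tested Hox genes were higher in EGFP+ tubules and 3 were lower. The shares over all genes were 30.3% and 24.9%, 55.3% together, and in 52.4% of all genes the 2 fractions did not overlap. Hoxd8 was 7.04-fold, Hoxd10 7.01-fold, Hoxd3 6.96-fold and Hoxd9 6.52-fold higher than in ALL. Hoxb8 was 6.42-fold and Hoxb3 5.43-fold higher. Hoxa10 was 1.5-fold lower (adjusted p = 2.7e-04).

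ALL and EGFP- tubules differed in 1.39% of all genes, with 0.00586% lower in ALL, and did not overlap in 2.99%. Among the Hox genes Hoxd10 (2.31-fold, adjusted p = 0.027), Hoxd8 (2.29-fold, adjusted p = 0.029) and Hoxd3 (1.89-fold, adjusted p = 0.037) were higher in ALL, in 4 of 4 mice each and with no overlap between the fractions. Hoxd9 also did not overlap, at 1.77-fold with an adjusted p of 0.109. With the mouse as a block 5 Hox genes were higher, and without mouse 1, mouse 2 or mouse 3 the count was 0, as it was with no filter on dim probes. On the linear scale the ALL level of Hoxd10 lay 8.81 ± 2.20% of the way from EGFP- to EGFP+, that of Hoxd8 8.73 ± 2.14%, of Hoxd9 7.62 ± 2.24% and of Hoxd3 7.43 ± 2.70% (SD, n = 4). Hoxb6 lay at 8.61 ± 4.15%, Hoxb4 at 6.64 ± 4.29%, Hoxb3 at 5.98 ± 1.65% and Hoxb8 at 5.79 ± 2.98%, beside 12.5 ± 3.39% for Slc12a3. These shares assume that signals of differently sorted fractions are comparable after scaling.

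No Hox gene passed the test between males and females in limma on the means of each mouse, with 4 at an unadjusted p under 0.05 and 1.27% of all genes past the threshold. The largest of these 4 was Hoxd8, lower in males by 0.50 on the log2 scale (adjusted p = 0.208). For a sex difference of EGFP+ minus EGFP-, 0 of 28 Hox genes passed in limma (lowest adjusted p = 0.408, 2 at an unadjusted p under 0.05). Of all genes 0% passed that test, in which 2 males and 2 females limit what can be seen.

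None of the tested cofactors that Hox proteins bind with passed the threshold as higher in EGFP+ tubules. Of 8 tested genes for the TALE homeodomain proteins, 0 were higher, 3 were lower and 5 did not pass, with a median of -0.19. Over all genes tested 32.3% were higher and 25.9% lower, and the counts of this and the lists that follow stand beside those shares as descriptions. Meis2, a partner that steadies Hox and Pbx on DNA, was lower by 3.66 ± 0.29 and Pbx3 by 1.25 ± 0.15 (log2, SE). Meis1 was at least 1.86-fold lower by the floor used for Hoxa11, with no EGFP+ array well above background. With normexp correction the log2 difference of Meis1 was 0.21. Pbx2, picked after its values had been seen, stood at 1.81 in EGFP+ and 1.83 in EGFP- tubules and did not pass the threshold.

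Chromatin factors keep Hox clusters off or on. Of 18 tested Polycomb genes 8 were higher, 1 was lower and 9 did not pass, with a median of 0.19, so 9 of 18 passed against 58.2% of all genes. Jarid2 (1.55 ± 0.12) and Ezh2 (1.09 ± 0.17), parts of the complex that methylates histone H3 for silencing, and Cbx7 (0.91 ± 0.16) were higher. Cbx2, a reader of that mark, was lower (-1.09 ± 0.22), and with normexp correction it was not past the threshold (adjusted p = 0.0893). Of 10 trithorax type activators and demethylases 5 were higher and 5 did not pass, with a median of 0.39. Psip1 (0.99 ± 0.12) and Kmt2a (0.63 ± 0.13), a methyltransferase that maintains Hox expression, led them, followed by Kmt2b (0.50) and Rbbp5 (0.46).

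Regulators that act above the Hox genes in the embryo moved in both directions. Of 8 tested genes of retinoic acid and caudal signalling 2 were higher, 5 were lower and 1 did not pass, with a median of -2.71, or -1.99 with Aldh1a3 at its bound. The retinoic acid making enzymes Aldh1a1 (-3.90) and Aldh1a2 (-3.31) were lower, as was the degrading enzyme Cyp26b1 (-3.50). Aldh1a3 was at least 3.65-fold lower by the floor used for Hoxa11. Aldh1a3 lost the call with normexp correction (adjusted p = 0.356), and Cyp26b1 without mouse 1 (adjusted p = 0.0584). Cdx1, Cdx2 and Cdx4, the caudal genes, were not tested because too few arrays were above background.

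Of 11 tested factors of the ureteric bud and the nephron progenitors 3 were higher, 6 were lower and 2 did not pass, with a median of -0.89. Lhx1, a homeobox factor of the forming nephron, was higher by 3.56 ± 0.11, Gata3 by 1.56 ± 0.26 and Sall1 by 1.24 ± 0.36. Eya1, the partner of Hox11 proteins in the kidney mesenchyme, was at least 4.37-fold lower by the floor used for Hoxa11. No EGFP+ array was well above background for Eya1. Eya1 did not pass with normexp correction (adjusted p = 0.340), nor did Sall1 without mouse 2 (adjusted p = 0.0640).

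**Figure D4:**
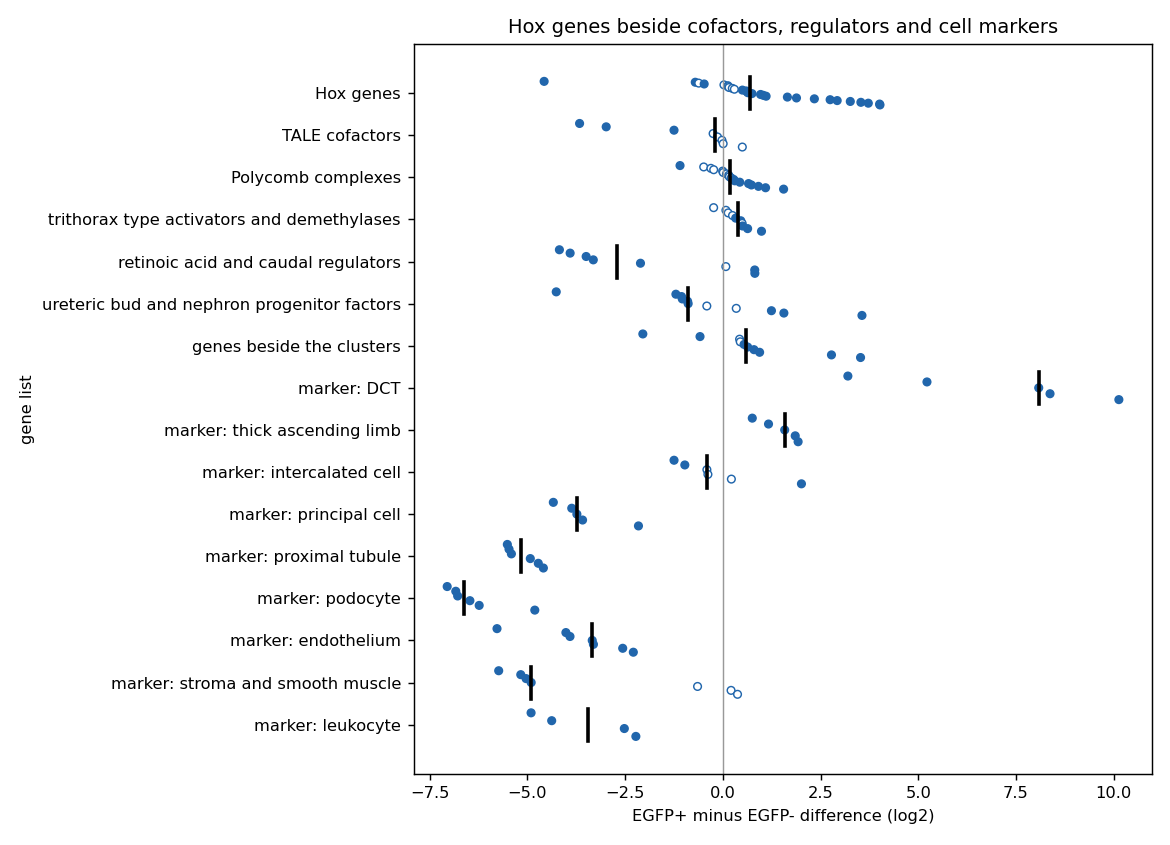
Log2 difference EGFP+ minus EGFP- of the tested members of each gene list, with 1 point per gene and a bar at the median. Filled points have an adjusted p under 0.05. Fitted Hox differences reach 4.02. Hoxa11, the one Hox gene below -1, is drawn at its fitted -4.57. The processed signal gives only a bound for it, of at least 15.2-fold lower with the dimmest detected signal of the array as floor. The DCT markers lie above 3 and the podocyte and proximal tubule markers below -4.

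Genes that lie beside the Hox clusters, and are not Hox genes, were in part higher too. Of 10 tested, 6 were higher, 2 were lower and 2 did not pass, with a median of 0.59. Skap1, near the Hoxb cluster, was higher by 3.52 ± 0.31, Cbx5, near Hoxc, by 2.78 ± 0.14 and Mtx2, near Hoxd, by 0.94 ± 0.11. Snx10, near Hoxa, was lower (-2.05 ± 0.23). The difference of Cbx5 is larger than that of any tested Hoxc gene.

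The promoters of 22 Hox genes were found in the RefSeq table of build GRCm38.p6, as 24 windows of 250 bases before a start. These windows held 2 to 35 CpG pairs with a median of 12.5, against a median of 6 over all 32851 windows. Above that median lay 19 of 24 Hox windows and 46.3% of all windows. The motif TGATNNAT, a form of the site that Hox and Pbx proteins share, was searched on both strands. It occurred in 4 of 24 Hox windows and in 7.68% of all windows. The 4 were Hoxb8, Hoxa2, Hoxb1 and 1 of the windows of Hoxd11, so it was found in none of Hoxd3, Hoxd4, Hoxd8, Hoxd9 and Hoxd10. Printed are the window of Hoxb8, the Hoxb gene with the largest difference, with the motif in capitals, and those of Hoxd10 and Hoxa11, the highest and lowest differences, with no match.
Hoxb8, chr11:96281655-96281904, plus strand: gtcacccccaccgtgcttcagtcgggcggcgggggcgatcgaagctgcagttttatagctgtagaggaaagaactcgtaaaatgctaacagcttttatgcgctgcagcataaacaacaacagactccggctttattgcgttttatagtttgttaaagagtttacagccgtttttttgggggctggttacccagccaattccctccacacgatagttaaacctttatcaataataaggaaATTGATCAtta
Hoxd10, chr2:74691641-74691890, plus strand: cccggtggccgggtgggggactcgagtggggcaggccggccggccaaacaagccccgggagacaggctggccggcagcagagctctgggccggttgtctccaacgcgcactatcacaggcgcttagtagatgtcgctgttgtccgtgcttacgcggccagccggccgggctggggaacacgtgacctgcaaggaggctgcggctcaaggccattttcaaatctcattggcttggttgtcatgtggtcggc
Hoxa11, chr6:52245811-52246060, minus strand: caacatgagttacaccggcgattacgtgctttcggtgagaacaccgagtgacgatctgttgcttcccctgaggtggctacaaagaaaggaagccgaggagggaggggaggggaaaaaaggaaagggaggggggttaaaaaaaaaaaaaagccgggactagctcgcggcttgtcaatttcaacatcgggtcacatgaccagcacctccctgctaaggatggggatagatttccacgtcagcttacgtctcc
The Hoxd10 window held 20 CpG pairs, that of Hoxa11 13 and that of Hoxb8 12. A match is a description of letters and not a bound site.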

How the data were processed

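Total RNA of the 12 fractions was hybridised in 1 colour (Cy3) to Agilent arrays of design 014868, with probe positions of build mm8, and read with Feature Extraction 9.5.3.1, per the file headers. The deposited processed signal is an intensity that this software corrected for background within each array, with no normalization between arrays. Outlier spots were left out here, repeated spots averaged, and the deposited intensities turned into log2 values minus the log2 75th percentile of the array. Probes that the software called well above background on 4 or more of 12 arrays were kept, and each gene was read by its brightest tested probe. limma 3.58.1 in R 4.3.3 (lmFit, eBayes) fitted 1 mean per fraction over all 12 arrays, with p-values adjusted by Benjamini-Hochberg over 17071 genes and a threshold of 0.05. The fit was also run on simulated data with 200 changed genes. Those arrays were drawn as independent, so the run does not cover the correlation between fractions of 1 mouse. The precision of the fit is limited by 4 arrays per fraction. A probe well above background on no array of a fraction gives only a bound. It is the other fraction's mean over the higher of the dimmest detected signal and the probe's own. The dimmest detected signal is that of any probe on the array, so it is not a detection limit for each probe. Hoxc12, for one, was not called at -4.95 on the EGFP+ array of mouse 4. Such bounds hold for the processed signal with that floor, and normexp correction gave smaller differences for Hoxa11, Eya1, Aldh1a3 and Meis1.

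Fractions of 1 mouse come from the same animal: their deviations from the fraction means correlated at 0.468 on average (lowest 0.236, 12 pairs), and those of different mice at -0.155 (36 pairs). The mouse as a block was an alternative, beside normexp with an offset of 50, quantile normalization, median centring, other filters and probe rules, the slide as a block and each mouse left out. Each of 3 slides held 4 arrays and mixed mice and fractions. A table of 12 columns of processed values was not used, because its columns run shifted by 1 fraction against the scanner files. The Hox genes, the other lists and the tests were chosen with earlier results of these data known. Genes named were the 14 Hox genes past the threshold with the largest differences in full, the others by range (Hoxa10 and Hoxc9 also per mouse, chosen after their values were seen), and up to 4 genes past the threshold per list. No annotation of build mm8 was used, so exons and UTRs of probes are not given. Some members and probe sequences are counted but not reported here. Promoters and gene spans are from RefSeq, build GRCm38.p6.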

Additional observations from a re-analysis of the deposited data

Results flagged for a closer look

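Of 84 groups of 4 arrays, 1 per tested Hox gene and fraction, 5 held a mouse far from the other 3 by Dixon's criterion, where chance gives about 5%. In EGFP+ tubules, Hoxa2 of mouse 3 stood at -2.84, with the nearest mouse at -2.56. In EGFP- tubules, Hoxa9 of mouse 3 stood at 0.21 with the nearest at 0.63, Hoxb5 of mouse 2 at -0.66 with the nearest at -0.24, and Hoxc10 of mouse 4 at -2.55 with the nearest at -2.07. In ALL tubules, Hoxa11 of mouse 4 stood at -2.58 with the nearest at -1.29. All 5 were the lowest of their group.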

How the results depend on the processing

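All 8 tested Hoxb genes, all 5 tested Hoxd genes and Hoxa9, Hoxa10 and Hoxa11 kept direction and call between EGFP+ and EGFP- in each of 15 alternatives. Of these 15, Hoxa4 lost the call in 8 and turned sign in 1, Hoxa6 and Hoxc9 lost it in 6 each, Hoxa5 in 5 and Hoxa2 in 2. Leaving out 1 mouse gave 15 to 16 Hox genes higher and 2 to 4 lower in that comparison. For ALL minus EGFP-, 5 Hox genes were higher with the mouse as a replicate block, 1 with normexp correction, 0 with no filter on dim probes, 0 to 3 with 1 mouse left out and 1 without the EGFP+ array of mouse 2; the genes past the threshold numbered 92 to 258 with 1 mouse left out. The block changed no other count by more than 1.5 times. With normexp, 5997 of all genes passed in EGFP+ minus ALL, and the medians were 0.49 for Hoxa, 0.37 for Hoxc and 3.31 for Hoxd. The Hoxa median was 0.34 with arrays centred on their medians, and with the mean of a gene's probes the medians were 0.37 for Hoxa and 1.58 for Hoxb. With no filter 33 genes differed by sex, and with quantile normalization 8 genes passed the test of a sex difference between fractions. Signs of EGFP+ minus EGFP- turned for Hoxa4 (0.18), Hoxc5 (0.32) and Meis1 (0.21) with normexp; and for Hoxc4 with the slide as a block (-0.012) and without mouse 2 (-0.14) or its EGFP+ array (-0.09). The cause was not tested. Hoxc5 passed without mouse 2 (-1.15, adjusted p = 0.0202) and Hoxc6 with median centring (0.45, adjusted p = 0.0110). Median centring moved the median of all genes from 0.11 to 0.26. The runs without the EGFP+ array of mouse 2 or the dim arrays of mouse 4 were chosen after seeing the data. Signals near background limit Hoxa6, Hoxc4, Hoxc5 and all genes with a bound.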

Other observations

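Probes for transcripts named after the opposite strand of the clusters were looked at after their values had been seen. The Hoxd3os1 probe at chr2:74510948-74511007 lies on the minus strand, opposite to the Hoxd genes. It stood at -0.74, -0.69, -0.93 and -0.87 in EGFP+ and at -1.65, -2.12, -1.89 and -2.10 in EGFP- tubules, without overlap, and was 2.19-fold higher (log2 1.13 ± 0.12, SE). The other Hoxd3os1 probe was detected on 0 of 12 arrays. A Hoxaas3 probe was 1.57-fold higher (limma adjusted p = 0.0157 over all tested probes). That probe is placed on the minus strand, which the Hoxa probes also share, so its signal cannot be told apart from transcripts of the Hoxa strand.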
